A study of Drosophila melanogaster with 4 samples.

Results

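The broad autosomal domains of RNA polymerase II were the enriched regions of the replicate set list that lay on 2L, 2R, 3L, 3R or 4 and were 10 kb or wider. They numbered 281 of the 5393 enriched autosomal regions of that list and of the 6761 enriched regions on all sequences. They were chosen by width in the replicate set list, so their number, width and share of sequence are a description. The polymerase was mapped by ChIP-seq, the sequencing of DNA that is pulled down with a protein by its antibody (here one sold by abcam), in head nuclei of mixed adult Drosophila melanogaster. Every sample carried the wild-type genotype of the strain Oregon-R, no treatment is named, and no source used here gives the age in days or the sex. The 2 ChIP libraries were each compared with 1 of 2 input libraries of unprecipitated chromatin, and 3 lists of regions were deposited, 1 per ChIP replicate and 1 for the set of both. A head holds neurons, glia, photoreceptors, fat body and muscle, so the lists are a mixture over cell types. No source used here says whether the replicates came from separate collections of flies, so the spread between them may be technical. Read depth is unknown, because the lists hold no read counts.

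RNA polymerase II transcribes the protein-coding genes. It gathers at promoters, where it often pauses shortly after starting, and then moves through the gene body to the 3′ end. Enrichment by ChIP therefore tends to be narrow over a promoter with a paused polymerase and wide over a gene that is transcribed along its length, or over a row of transcribed genes that lie close together. These patterns are background and were not separated here, since no gene annotation of the build of the lists (FlyBase release 5) was used and no gene is named.

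The 281 domains made up 5.21% of the enriched autosomal regions and 20.6% of the sequence they covered, 4.34 Mb of it. Their median width was 13.6 kb, with an interquartile range of 11.3 to 17.4 kb. Most lay close above the limit: 96 were 10 to 12 kb wide and 75 were 12 to 15 kb wide. Domains of 15 kb or more numbered 110, those of 20 kb or more 46, those of 30 kb or more 8 and those of 40 kb or more 4. The 3 domains just inside the limit were 10007, 10014 and 10017 bp wide and scored 1.42, 1.23 and 1.38. The 3 autosomal regions just outside it were 9994, 9979 and 9955 bp wide and scored 0.94, 0.73 and 2.15. The list thus runs through the limit without a break, and 864 further regions were 5 to 10 kb wide.

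All 281 domains overlapped an enriched region of both replicates. Over all autosomal set regions this share was 79.8%, and among the regions of 5 to 10 kb it was 99.4% (859 of 864). Of those under 5 kb it was 74.5% (3165 of 4248). A wide region offers more sequence for an overlap of 1 bp, and the set list was made from the same libraries, so nothing is read from these shares and no test was made here or below.

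In most domains the replicate lists filled nearly the whole length. In replicate 1 the median domain was covered over 95.9% of its length, with an interquartile range of 91.1 to 98.9%, a lowest value of 35.9% and a highest of 99.98%. In replicate 2 the median was 94.9%, the interquartile range 88.2 to 98.4%, the lowest value 50.2% and the highest 100%. The mean of the 2 medians was 95.4% ± 0.678 (SD, n = 2). Of the summed length of the domains, 93.9% lay inside regions of replicate 1 and 92.2% inside regions of replicate 2. Both lists together covered 97.3% of it, and 88.8% was covered in each of them. A coverage of at least 90% in each replicate was reached by 170 of 281 domains (60.5%, 95% exact interval 54.5 to 66.3), against 46.7% of all autosomal set regions. For the regions of 5 to 10 kb it was 45.6%. These intervals (Clopper-Pearson) cover the counting of regions only, and the difference was not tested. The share over all set regions also counts regions that a replicate did not overlap, since 79.8% were overlapped in both. A gap of the same length takes a smaller percent of a wide region, so width bears on these shares. Median coverage in replicates 1 and 2 was 94.1% and 93.8% for regions of 5 to 10 kb. For those under 5 kb it was 94.2% and 93.6%, so the medians lay close together.

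**Figure D1:**
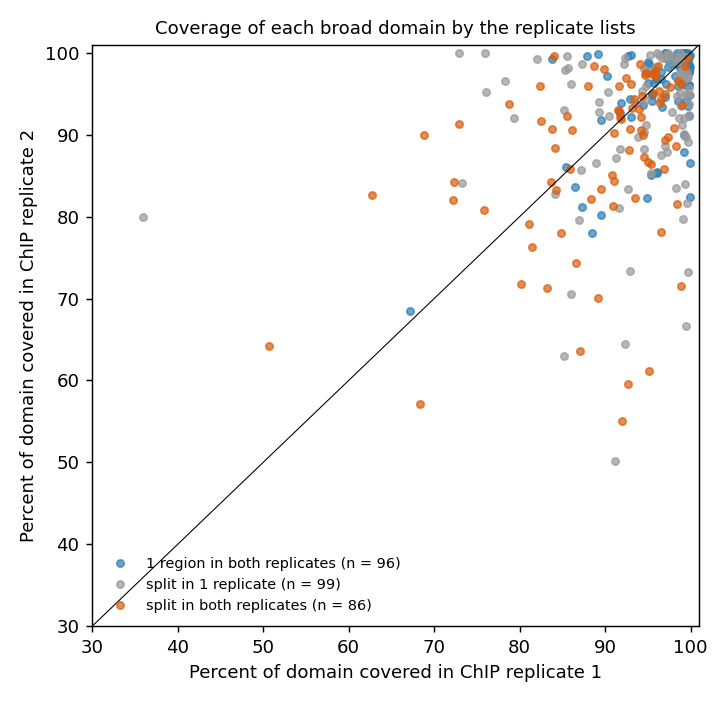
Percent of each of the 281 broad domains covered by enriched regions of ChIP replicate 1 (horizontal) and ChIP replicate 2 (vertical), 1 point per domain, coloured by whether the domain was overlapped by 1 region or by several; the line marks equal coverage. Most points lie above 90% on both axes, and 4 domains lie below 80% on both.

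Coverage of the same domain varied between the replicates. Across the 281 domains the coverages had Spearman's rho = 0.40, a description over domains that share their libraries. Coverage was higher in replicate 1 for 158 domains and in replicate 2 for 123. It differed by more than 20 percentage points in 14 domains, of which 10 were better covered in replicate 1. The widest difference in that direction was at 3R 5350578 to 5361114, covered over 91.2% in replicate 1 and 50.2% in replicate 2. In the other direction it was at 2L 11792981 to 11803288, covered over 35.9% and 79.9%.

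The 5 domains with the lowest mean coverage show where the replicate lists fell short of the set list. At 3L 7813993 to 7824935 (10943 bp, score 0.58) each replicate had 2 regions, which covered 50.7% in replicate 1 and 64.2% in replicate 2. Most of the uncovered sequence lay at the ends, 4215 bp in replicate 1 and 2502 bp in replicate 2. The ends were also missing at 2L 11792981 to 11803288 (score 0.51, the lowest of all 281), with 5564 bp in replicate 1 and 2069 bp in replicate 2. At 3R 3943098 to 3954961 (score 1.20) both replicates had 1 region, of 7968 bp in replicate 1 and 8129 bp in replicate 2, and both left an end of more than 3.7 kb bare (3896 and 3735 bp). The domain at 2R 5761857 to 5775297 (score 0.72) was instead broken inside. It held 4 regions in replicate 1, with 4082 bp between them, and 3 regions in replicate 2, with 5758 bp between them. The remaining domain of the 5, at 3R 5350578 to 5361114 (score 1.24), was 1 region in replicate 1 and 2 regions in replicate 2, which left 3206 bp between them and 2043 bp at the ends.

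The replicates divided about as many domains as they left whole. Replicate 1 had exactly 1 region in 157 domains, 2 regions in 88, 3 in 24, 4 in 10, 5 in 1 and 7 in 1. Replicate 2 had 1 region in 134 domains, 2 in 98, 3 in 38, 4 in 7 and 5 in 4. The share held in 1 region was 55.9% and 47.7%, a mean of 51.8% ± 5.79 (SD, n = 2). In all, the domains held 457 regions of replicate 1, with a median width of 7871 bp, and 492 regions of replicate 2, with a median width of 6687.5 bp. The same domains were not always the divided ones: 96 were held in 1 region by both replicates, 86 were divided in both, 38 in replicate 1 alone and 61 in replicate 2 alone. The 96 undivided domains are 34.2% of the 281 (95% exact interval 28.6 to 40.0), against 70% of all autosomal set regions. The 86 divided in both are 30.6% (25.3 to 36.4), against 3.28%. Among regions of 5 to 10 kb, 10.2% were divided in both replicates. A narrow region has little room for several replicate regions, so width, which chose the domains, bears on these shares.

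Division went with score, and the 8 domains of 30 kb or more were divided more often than the rest. Among the 94 lowest-scoring domains (score up to 1.29), 30.9% were held in 1 region in replicate 1 and 29.8% in replicate 2. Among the next 94 (score up to 1.57) the shares were 57.4% and 43.6%. Among the 93 highest-scoring they were 79.6% and 69.9%. Both replicates thus rise in the same order, while the median width hardly moved, from 13441.5 and 13399.5 bp to 13829 bp. The median score was 1.66 for the 96 domains undivided in both replicates, 1.42 for the 99 divided in 1 of them and 1.17 for the 86 divided in both. Across the domains, Spearman's rho between score and number of regions was -0.43 in replicate 1 and -0.39 in replicate 2. Between width and number of regions it was 0.08 and 0.18. Below 30 kb the share held in 1 region lay between 52.0% and 60.9% in the 4 classes of width in replicate 1 and between 42.1% and 53.1% in replicate 2. Of the 8 domains of 30 kb or more, 2 (25%) were held in 1 region in replicate 1 and 0 in replicate 2. The median score of these 8 was 1.26, against 1.43 over the 281, so width and score cannot be told apart in them. These correlations run over 281 domains of the same libraries and are descriptions. The part of read depth in them was not tested.

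**Figure D2:**
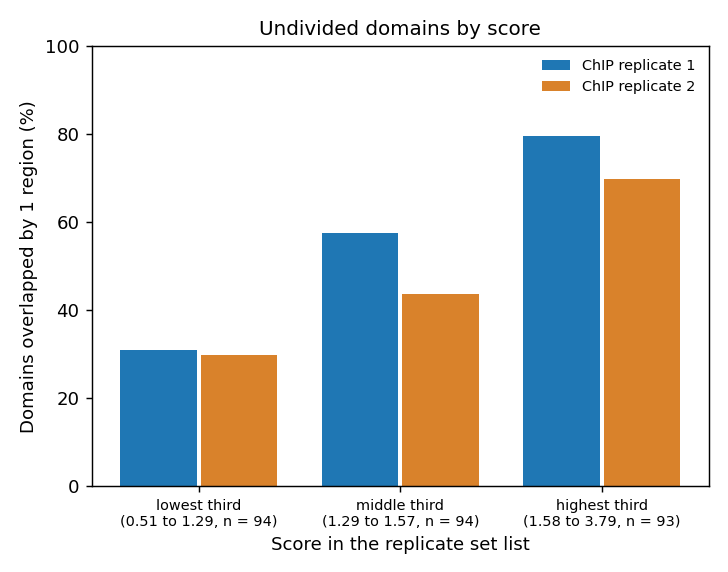
Percent of broad domains overlapped by exactly 1 region in ChIP replicate 1 (blue) and ChIP replicate 2 (orange), in 3 groups of nearly equal size by score in the replicate set list. The share is lowest in the lowest-scoring group (30.9% and 29.8%) and highest in the highest-scoring group (79.6% and 69.9%).

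In 6 domains a replicate had 5 or more regions, and 5 of these 6 were wider than 18 kb. The widest of all, at 3R 5753443 to 5822393, held 7 regions of replicate 1 and 4 of replicate 2. The domains at 2R 13312111 to 13333485 (score 1.17) and 2R 10111042 to 10129055 (score 0.88) held 4 and 3 regions of replicate 1 and 5 of replicate 2 each. At 3R 18575424 to 18596327 (score 0.95) there were 3 regions in replicate 1 and 5 in replicate 2. That at 3R 20381804 to 20399342 (17539 bp, score 1.12) held 5 in replicate 1 and 3 in replicate 2. None of the 6 scored above the median of the 281 domains, 1.43. The remaining domain, at 2L 9682583 to 9702982 (score 1.29), combined a strong end with a weak remainder in both lists. Its regions in replicate 1 were 3588, 2332 and 6874 bp wide from left to right and scored 0.50, 0.59 and 1.95. In replicate 2 they were 1491, 1627, 6296, 2141 and 5385 bp wide and scored 0.38, 0.54, 0.69, 0.59 and 2.70. The highest-scoring region stood at the right end in each replicate.

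Replicate regions inside 1 domain often differed in score. The highest exceeded the lowest by a median of 0.62 in the 124 domains divided in replicate 1 and of 0.77 in the 147 divided in replicate 2. The difference was above 1 in 29 and 50 of them. The widest difference in both replicates was in the domain at 3R 901997 to 914140, with scores from 0.53 to 2.62 in replicate 1 and from 0.48 to 4.15 in replicate 2. The score of 4.15 belonged to a region of 3146 bp that ranked 1 among the autosomal regions of replicate 2. In the 86 domains divided in both replicates, the highest-scoring region of replicate 1 overlapped that of replicate 2 in 75 (87.2%). It overlapped the lowest-scoring region of replicate 2 in 25, since a wide region of 1 list can meet several of the other. The widest region was also the highest-scoring in 86 of 124 divided domains (69.4%) in replicate 1 and in 94 of 147 (63.9%) in replicate 2. It filled a median of 56.8% of the domain in replicate 1 and 56.0% in replicate 2. Where a domain held 3 or more regions, the highest-scoring stood at an end in 24 of 36 domains in replicate 1 (66.7%) and in 40 of 49 in replicate 2 (81.6%). The lowest-scoring stood there in 23 of 36 (63.9%) and 16 of 49 (32.7%). Of all regions in these domains, 58.1% and 60.5% stood at an end, so the replicates differed and no rule of position is read from them.

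The 10 widest domains lay on 2L (3 domains), 2R (2), 3R (2), 4 (2) and 3L (1). The first, at 3R 5753443 to 5822393, spanned 69.0 kb with a score of 0.98. From left to right, its regions in replicate 1 were 9475, 20326, 7882, 1391, 2321, 21947 and 1474 bp wide and scored 1.39, 0.86, 0.69, 0.49, 0.50, 0.94 and 0.39. In replicate 2 they were 11276, 26720, 6480 and 19728 bp wide and scored 1.68, 0.92, 0.77 and 1.02. Both lists had the highest score at the left end and a second rise on the right. Among 6 breaks in replicate 1 and 3 in replicate 2, a break lay at nearly the same place in both. It was between positions 5794003 and 5795508 in replicate 1 and between 5794392 and 5795606 in replicate 2. The longest break of replicate 2 there, 2942 bp at 5764731 to 5767672, was wholly covered in replicate 1.

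The second widest, 45.9 kb at 2L 9255487 to 9301390 (score 1.43), was 1 region of 45237 bp in replicate 1, with a score of 1.44. In replicate 2 it held regions of 6109, 5911, 2021 and 30381 bp, with scores of 2.27, 0.73, 0.59 and 1.34, and only 667 bp lay between them. The breaks thus took little sequence but parted regions of unlike score. The third, 44.9 kb at 3R 5242555 to 5287482 (score 1.45), was divided once in each replicate, with 1725 bp between the regions in replicate 1 and 1259 bp in replicate 2. The largest regions there spanned 40733 and 41247 bp. The domain of 43.5 kb at 2L 13017745 to 13061260 (score 1.37) held 4 regions in each replicate and was covered over 97.0% in replicate 1 and 94.99% in replicate 2. On 3L, 39.9 kb at 11512934 to 11552789 (score 1.03) held 2 and 3 regions.

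The remaining 5 of the 10 were 27.3 to 39.7 kb wide. At 4 465671 to 505338 (score 1.14) each replicate had 3 regions, and coverage was 98.3% in replicate 1 and 88.7% in replicate 2. At 4 1132801 to 1164727 (score 1.02) there were 2 and 3 regions. The domain at 2L 105211 to 135779 (score 1.64) was 1 region of 30394 bp in replicate 1 and 3 regions in replicate 2, the widest of 14123 bp. On 2R, the domain at 6402855 to 6431754 (28.9 kb, score 1.62) was the only one of the 10 held in 1 region by both replicates, 28860 bp wide in replicate 1 and 27785 bp wide in replicate 2. The other, at 2R 3620220 to 3647519 (27.3 kb, score 1.63), held 3 regions in each. All 10 ranked between 1217 and 2594 by score among the 5393 autosomal regions, so none was near the top of the list.

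**Figure D3:**
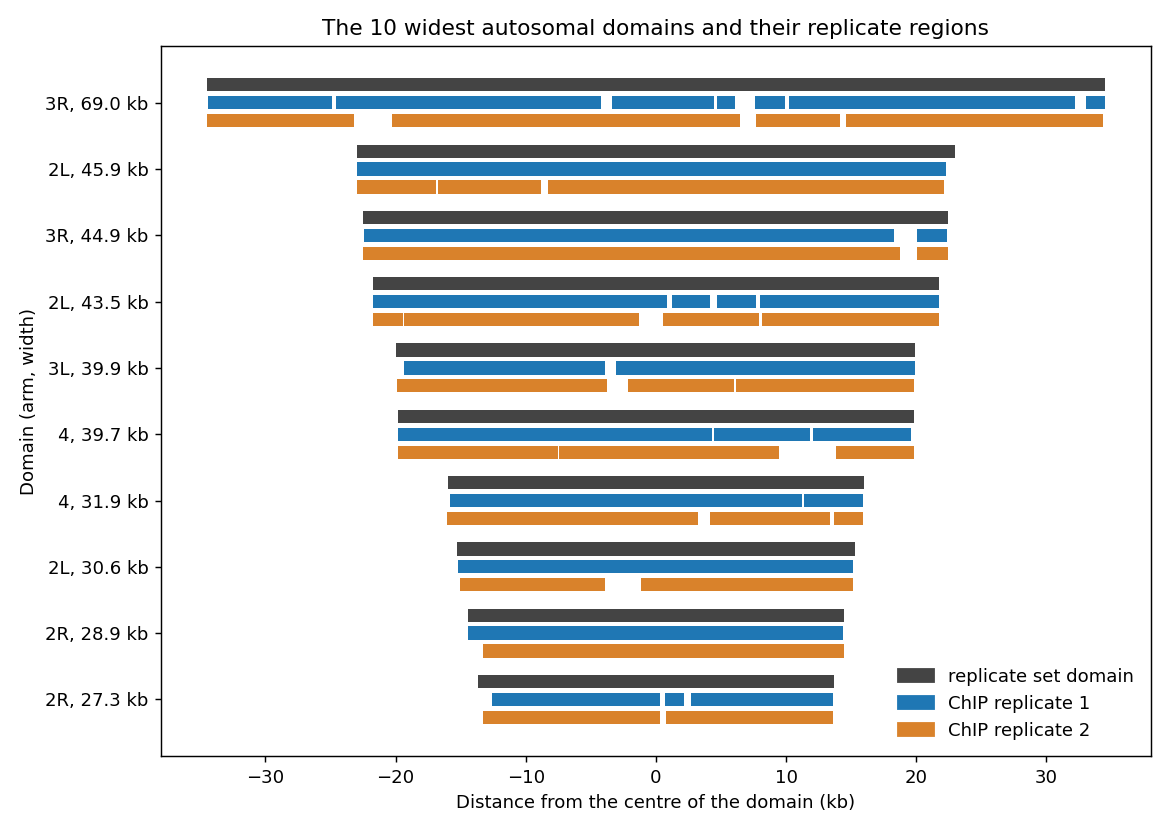
The 10 widest broad domains drawn to scale as distance from the centre of each domain in kb, with the replicate set domain in grey and the regions of ChIP replicate 1 (blue) and ChIP replicate 2 (orange) beneath it. Breaks between the replicate regions are narrow beside the domains (the shortest cannot be seen at this scale), and the domain of 28.9 kb on 2R is the only one of the 10 undivided in both replicates.

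The gaps inside domains were short. Gaps between replicate regions numbered 176 in replicate 1, with a median of 395.5 bp and an interquartile range of 168.75 to 808.5 bp, and 211 in replicate 2, with a median of 429 bp and 186.5 to 952.5 bp. They were 500 bp or shorter in 105 and 117 cases and longer than 2 kb in 7 and 20. The middle 50% of the domain's length held the midpoint of 119 of the 176 (67.6%) and of 152 of the 211 (72.0%). End gaps, between a domain's edge and the outermost replicate region, were more frequent and shorter, with 500 and 424 of them and medians of 83 and 156 bp. They nevertheless held more sequence than the inner gaps, 157 kb against 106 kb in replicate 1 and 178 kb against 161 kb in replicate 2.

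Of the sequence uncovered in a replicate, less was uncovered than covered in the other. Gaps of either kind held 264 kb in replicate 1 and 339 kb in replicate 2, and 119 kb lay in a gap of both. That is 45.2% of the gap sequence of replicate 1, 35.1% of that of replicate 2 and 24.6% of the sequence in a gap of either. It comes to 2.75% of the summed length of the domains. Over that whole length, 93.9% was covered in replicate 1 and 92.2% in replicate 2. The gap sequence of each list was thus less often covered in the other than domain sequence at large, which was not tested. When only the upper 50% of replicate regions by score were kept, the gap sequence grew by construction. It reached 1144 kb in replicate 1 and 1336 kb in replicate 2. Of it, 71.6% in replicate 1 and 61.3% in replicate 2 were then common to both, 49.3% of the sequence in a gap of either. More gap sequence has more room to coincide, so nothing is read from this rise. Of the inner gaps, 80 of 176 in replicate 1 (45.5%) and 81 of 211 in replicate 2 (38.4%) touched a gap of the other replicate. Longer inner gaps did so more often: the share was 25.8% and 23.3% for gaps of up to 100 bp, and 76.5% (26 of 34) and 56.9% (29 of 51) for gaps over 1 kb. A longer gap has more sequence in which to meet another, and the share of its bases found in a gap of the other replicate was 36.9% and 23.4%. No region called depleted lay in any of the 281 domains, out of 41 such regions in the set list and 3 in replicate 1. Replicate 2 had 0. The domains and the 41 depleted regions are calls of the same list, so nothing is read from their lack of overlap. The nearest depleted region of the set list lay 71 bp from a domain, and 3 of the 41 lay within 10 kb of one.

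The 5 longest inner gaps were shared with the other replicate in part or not at all. The longest was 5061 bp at 2L 9690743 to 9695803 in replicate 1, of which 714 bp also lay in a gap of replicate 2. The next was 5006 bp at 3R 19022984 to 19027989 in replicate 2, inside a domain of 25632 bp with a score of 0.78 that was covered over 92.0% in replicate 1 and 55.0% in replicate 2. On chromosome 4, 4390 bp at 494965 to 499354 were uncovered in replicate 2, and 246 bp of these also in replicate 1. A gap of 4213 bp at 2R 5763805 to 5768017 in replicate 2 had 2123 bp in a gap of replicate 1, the largest common part of the 5. That of 4120 bp at 3L 14536578 to 14540697 in replicate 2 was wholly covered in replicate 1.

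The outer edges of the domains mostly lay within 500 bp of each other in the 3 lists. The set list was made from the same libraries, so its nearness to each replicate list is not independent. Of 562 edges, the outermost replicate region ended within 100 bp of the domain's edge at 316 (56.2%) in replicate 1 and 308 (54.8%) in replicate 2, and within 500 bp at 468 and 459. It stopped more than 1 kb short of the edge at 48 and 58 edges. The replicate region reached beyond the edge at 61 edges (10.9%) in replicate 1 and 137 (24.4%) in replicate 2, by at most 2475 and 4027 bp. Between the 2 replicates the outer edges differed by a median of 105 bp, and by more than 2 kb at 20 of 562. They lay within 100 bp of each other at 272 edges and within 500 bp at 458. No replicate region spanned 2 of the domains. A replicate region joined a domain to another region of the set list in 1 domain in replicate 1 and in 4 in replicate 2. The farthest reach, 4027 bp in replicate 2, was at 3L 17633627 to 17643633, the domain closest to the width limit.

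Many of the domains were narrower than 10 kb in the replicate lists. A region of at least 10 kb was present in both replicates in 123 of the 281 domains, in replicate 1 alone in 54, in replicate 2 alone in 33 and in neither in 71. Conversely, replicate 1 held 182 autosomal regions of 10 kb or more and replicate 2 held 167. Of these, 181 and 165 overlapped a domain. The exceptions were at 3R 8105889 to 8119368 in replicate 1 (13480 bp) and at 3L 198487 to 209533 (11047 bp) and 3R 5607424 to 5620210 (12787 bp) in replicate 2. Each overlapped 2 regions of the set list, the widest of which were 7281, 9624 and 8280 bp.

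By score, the domains filled the upper middle of the list. Scores are the authors' own, 1 per region, and were ranked within a list only. The domains had a median score of 1.43, with an interquartile range of 1.17 to 1.68, and ran from 0.51 to 3.79. Regions of 5 to 10 kb had a median of 1.27 and an interquartile range of 0.96 to 1.69, and those under 5 kb a median of 0.72 and a range of 0.37 to 1.47. The median domain stood at percentile 70.6 of the autosomal set regions. Of the 281, 257 (91.5%) were in the upper 50% by score and 0 were in the lowest 25%, which held 1342 of the regions under 5 kb. Of the 864 regions of 5 to 10 kb, 666 (77.1%) were in the upper 50% and 6 (0.694%) in the lowest 25%. Among the 500 highest the domains were present about in proportion. Of the 281, 25 (8.90%) ranked among the 500 highest, against 9.27% of all autosomal regions, 10.1% of those under 5 kb and 5.32% of those of 5 to 10 kb. Among the 100 highest, 2 were domains and 90 were narrower than 5 kb, where these classes made up 5.21% and 78.8% of all autosomal regions. The domains were thus fewer there than in proportion, which was not tested.

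Within the domains, width and score were nearly unrelated. Spearman's rho was 0.05 across the 281 domains, against 0.59 across all 5393 autosomal regions, whose range of widths is much larger. The median score was 1.42 at 10 to 12 kb, 1.41 at 12 to 15 kb, 1.495 at 15 to 20 kb, 1.52 at 20 to 30 kb and 1.26 for the 8 domains of 30 kb or more. These 8 had no score above 1.64, whereas the highest score among domains of 12 to 15 kb was 3.79. What the score sums up over a wide region is not stated, and the part of averaging over width was not tested.

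**Figure D4:**
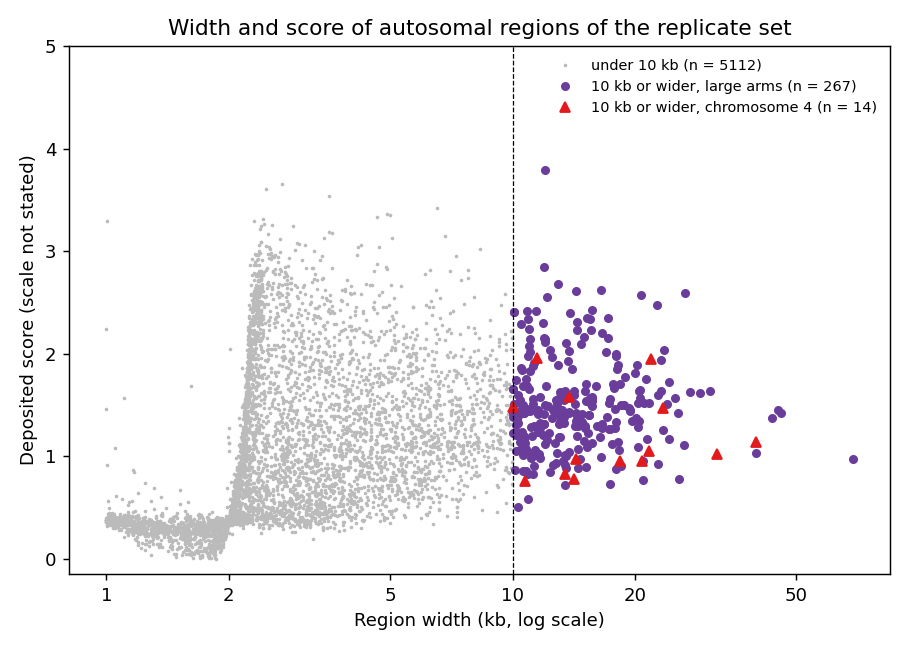
Width in kb (log scale) against the deposited score for every enriched autosomal region of the replicate set, with regions under 10 kb in grey, broad domains on 2L, 2R, 3L and 3R in purple and those on chromosome 4 as red triangles; the dashed line marks 10 kb. Broad domains lie between scores of 0.51 and 3.79, the 8 widest at 1.64 or below.

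The 10 highest-scoring domains lay on 3R (5), 2L (3), 2R (1) and 3L (1), and 8 of them were held in 1 region by both replicates. The highest was at 3R 17121187 to 17133238 (12.1 kb), where the score of 3.79 was also the highest of all autosomal regions of the set list. Replicate 1 had regions of 5153 and 4988 bp there, with scores of 3.72 and 2.45, and the first ranked 1 in that list. Replicate 2 had 1 region of 9990 bp, with a score of 3.94 and rank 3 among the autosomal regions of its list. Coverage was 84.1% and 82.8%, and the uncovered sequence lay mostly at the ends. This domain stood far above the next, at 3L 222091 to 234018, which scored 2.85 and ranked 74 in the set list, 38 in replicate 1 and 148 in replicate 2.

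The next 5 scored from 2.57 to 2.68. They lay at 2L 866634 to 879609 (score 2.68), 2L 2744777 to 2761281 (2.62), 3R 8264326 to 8278646 (2.61), 3R 5905043 to 5931608 (2.60) and 3R 4863701 to 4884416 (2.57), and each was 1 region in both replicates. Their ranks were between 144 and 250 in replicate 1 and between 191 and 451 in replicate 2. The domain at 3R 5905043 to 5931608 was both wide, at 26566 bp, and high-scoring, and its regions in the replicates spanned 25080 and 24867 bp. The domain at 3R 901997 to 914140 (2.56) holds, in replicate 2, the narrow strong region described above. In replicate 1 its highest-scoring region was 10346 bp wide and scored 2.62. The last of the 10 were 2R 8145771 to 8168462 (22692 bp, score 2.48), covered over 99.5% and 99.996%, and 2L 3055488 to 3071184 (15697 bp, score 2.42), covered over 96.5% and 97.6%.

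The domains stood in occupied surroundings. The median distance from a domain to the nearest other enriched region of the set list was 1179 bp, with an interquartile range of 415 to 3230 bp. It was 1330 bp for regions of 5 to 10 kb and 2054.5 bp for those under 5 kb. A neighbour within 500 bp was present for 82 of 281 domains (29.2%, 95% exact interval 23.9 to 34.9), against 23.4% of all autosomal set regions and 28.7% of those of 5 to 10 kb. Such a neighbour stood on both sides of 10 domains, a count that was not set against a share for other regions. Other set regions filled a mean of 36.0% of the 10 kb on either side of a domain and 31.4% of the 50 kb. For regions of 5 to 10 kb the means were 35.1% and 30.7%, and for those under 5 kb 28.9% and 27.4%. The surroundings of the domains were therefore close to those of regions of 5 to 10 kb, and neither difference was tested.

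The neighbours were made up much like the list as a whole. Of the 562 neighbours, counted once on each side of each domain, 443 (78.8%) were under 5 kb, 91 (16.2%) were 5 to 10 kb and 28 (4.98%) were domains. Among all 5393 autosomal regions these shares were 78.8%, 16.0% and 5.21%. The median neighbour was 2826 bp wide with a score of 0.90, and 413 neighbours (73.5%) scored lower than the domain, where the median domain itself stood at percentile 70.6 of the list. The 92 neighbours within 500 bp had a median width of 3149 bp and a median score of 0.78. Domains without another set region within 10 kb numbered 18 (6.41%), against 6.13% of regions of 5 to 10 kb and 16.9% of those under 5 kb. The median score of these 18 domains was 1.64 and their median width 13020 bp, and 8 of them were undivided in both replicates. The most isolated lay at 3L 5347218 to 5362040 (score 1.41), with 75612 bp free on its left and 54122 bp on its right, and next to it in order stood the domain at 3R 901997 to 914140, with 53632 and 39198 bp.

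The distance between successive domains covered a wide range. The 276 intervals between successive domains had a median of 176 kb, with an interquartile range of 55.8 to 411 kb. Of them, 103 were 100 kb or shorter, 61 were 50 kb or shorter, 20 were 10 kb or shorter and 16 were longer than 1 Mb. Another domain lay within 100 kb of 164 of the 281 (58.4%). This share goes with the number of domains: it was 30.9% for the 110 of 15 kb or more, and 40.7% and 43.1% for the 182 and 167 regions of 10 kb or more in the lists of replicate 1 and replicate 2. It was not set against any expected share. Domains that lay within 100 kb of the next formed 61 groups of 2 or more, with 164 domains, and 117 domains stood alone. Over 95 full bins of 1 Mb on the large arms there were 2.77 domains a bin, with a variance of 1.36 times the mean. The fullest bin held 8 and 13 bins held 0. Over these bins the number of domains and the number of all set regions had Spearman's rho = 0.39, a description over bins of the same list.

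**Figure D5:**
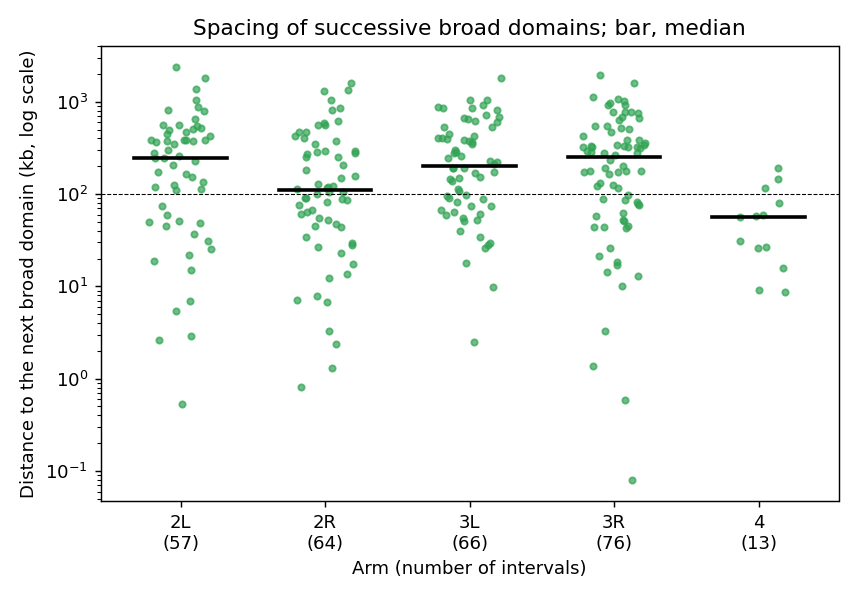
Distance in kb (log scale) from each broad domain to the next on the same arm, 1 point per interval, with the median as a black bar and 100 kb as a dashed line; points are spread sideways for visibility. Medians run from 55.9 kb on chromosome 4 to 251 kb on 3R, and 103 of 276 intervals lie at or below 100 kb.

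The 5 closest pairs of domains were separated by 79 to 1293 bp, with no other set region between them. On 3R, 4474359 to 4491686 (score 1.52) and 4491766 to 4503835 (score 1.68) lay 79 bp apart and together spanned 29.5 kb. Domains with unlike scores met on 2L, where 2729092 to 2744249 (score 1.54) and 2744777 to 2761281 (score 2.62) were 527 bp apart, each 1 region in both replicates. A distance of 582 bp parted 3R 3929937 to 3942515 (score 1.45) from 3943098 to 3954961 (score 1.20). Of these 5 pairs, the strongest step in score was on 2R, where 8047897 to 8063504 scored 2.23 and 8064317 to 8077889, 812 bp away, scored 0.88. The first of these held 1 and 2 replicate regions and the second 2 and 3. The last pair, 2R 5451624 to 5469800 (score 1.14) and 5471094 to 5482769 (score 1.28), was 1293 bp apart.

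The largest groups of domains, named after their values were seen, held 6 domains each. On 3R a group spanned 300 kb, from 5164624 to 5464264, of which 40.5% was domain sequence, with scores from 1.24 to 1.86. It includes the third widest domain. The bin from 5 to 6 Mb on 3R, which holds this group, the widest domain and the domain at 5905043 to 5931608, was the fullest on the large arms with 8 domains among 63 set regions. On 2R the groups of 6 spanned 258 kb from 11818290 to 12075983 and 212 kb from 19746288 to 19958531. On chromosome 4 a group of 6 spanned 362 kb from 327630 to 689449. Long stretches without a domain were present on every large arm. Between 2 domains, the longest on each arm measured 2399 kb on 2L (13906733 to 16305891), 1950 kb on 3R, 1823 kb on 3L and 1592 kb on 2R. On 2R a longer stretch of 2511 kb lay before the first domain, and on 3L 1669 kb followed the last.

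The large arms carried the domains at like densities. There were 2.52 domains per Mb on 2L, 3.07 on 2R, 2.73 on 3L and 2.76 on 3R, with 58, 65, 67 and 77 domains. They made up between 4.95% and 5.28% of the set regions of each arm. The median width was 11823.5 bp on 2L and between 13405 bp on 3L and 14221 bp on 2R on the other large arms, and the median score lay between 1.38 on 2R and 1.48 on 2L. The share held in 1 region ranged from 49.2% on 2R to 65.5% on 2L in replicate 1 and from 41.4% on 2L to 57.1% on 3R in replicate 2. The order of the arms therefore differed between the replicates, and 2L was highest in one and lowest in the other. In the 2 Mb at the centromeric end of the assembled arms there were 3 domains on 2L, 0 on 2R, 1 on 3L and 9 on 3R. That is 4.5 per Mb on 3R against 2.62 per Mb on the rest of that arm, and 0.5 against 2.93 on 3L.

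Chromosome 4, a small autosome rich in heterochromatin whose genes are nevertheless transcribed, held 14 of the 281 domains. They made up 14 of its 121 set regions (11.6%, 95% exact interval 6.47 to 18.7), against 5.06% on the large arms (4.49 to 5.69). The density was 10.4 domains per Mb against 2.76, a ratio of 3.75. Domains took up 19.7% of the length of chromosome 4, against 4.21% of the large arms, and 42.7% of its covered sequence, against 19.9%. The median width was 16351 bp against 13466 bp. The median score was lower, 1.04 against 1.44, as it was over all set regions (0.53 against 0.94). With 14 domains on 1 short chromosome, and with width as the rule, these differences were not tested.

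The 14 domains on chromosome 4 were covered about as fully as the rest. The median coverage was 98.0% in replicate 1 and 94.9% in replicate 2, and 9 and 8 of the 14 were held in 1 region. The lowest coverage was at 367531 to 385875 (score 0.95), with 75.9% and 80.8% in 3 regions each. The next lowest was at 561194 to 571905 (score 0.76), 1 region in each replicate, with 87.3% and 81.2%. The highest scores were 1.96 at 1045224 to 1056706 and 1.95 at 1084538 to 1106431, both undivided and the second covered over 99.9% and 99.7%. With 1065389 to 1075444 between them (score 1.48, undivided) and 1132801 to 1164727 and 1224740 to 1238919 (score 0.78) beyond, they formed a group of 5 domains over 194 kb, 46.2% of it domain sequence.

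Of the other 7 domains, 5 were undivided in replicate 1. They were 151024 to 165380 (score 0.97, undivided in both replicates), 327630 to 341406 (1.58), 587571 to 608354 (0.96), 666014 to 689449 (1.47, undivided in both) and 879787 to 901466 (1.06, undivided in both). In replicate 2 the domain at 327630 to 341406 was divided by a gap of 6 bp. The domain at 196653 to 210094 (score 0.82) held 2 regions in each replicate, and that at 465671 to 505338 is described above. Set regions also lay close by: the median distance from a domain to the nearest was 253 bp on chromosome 4, against 1010 to 1418 bp on the large arms. Set regions as a whole were denser there too, with 121 on 1.35 Mb, against 5272 on 96.6 Mb of the large arms.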

How the data were processed

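The authors deposited regions called enriched or depleted, with 1 score each, for 2 ChIP replicates and for their set. The build is FlyBase release 5, per the file headers. The submitters' processing notes list Bowtie 0.12.7. No source used here names the region caller, its threshold or how replicates were combined. The deposited score was examined: relative to the most common score of its list, 2 to the power of the score equalled a fraction with a denominator of at most 300 (within a relative 1e-10) in 22.9% of the regions of the set list, 38.6% of replicate 1 and 48.2% of replicate 2. With bases e and 10 it was at most 0.265%. Most scores met none of these, so the scale of the score remains unknown, and scores were compared within a list only.

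Replicate regions were matched to domains by an overlap of at least 1 bp. Coverage, gaps, edges, distances and densities were computed from the coordinates, and the interval code was tested on simulated data. The domains were chosen, and the measures listed, with earlier results of these data known. The rule for naming took the 10 widest and 10 highest-scoring domains, the 5 most divided (ties ordered by the regions of both replicates together, then by width), the 5 least covered, the 5 closest pairs, the 5 longest inner gaps, all domains on 4, and 3 regions on either side of the width limit. Other positions were chosen after their values were seen. No test was run. Intervals are exact (Clopper-Pearson, 95%). A gene table of Release 6 was not used, since positions cannot be carried between releases here. The alternatives were other width limits, merging within 500 bp, the upper 50% of replicate regions by score, the list of each replicate, leaving out chromosome 4 or a replicate, stricter overlap and other distances. The tools were scipy 1.17.1, matplotlib 3.10.9, numpy 2.4.6 and pandas 2.3.3 under Python 3.11.15.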

Additional observations from a re-analysis of the deposited data

How the results depend on the processing

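Of 50 values recomputed under the alternatives, 25 stayed within the spread or interval of the reported value (within 1.5 times for the number of domains) and 25 moved. None of these values has a test. Leaving out a replicate could not move the coverage or the share held in 1 region. Each of 2 values always lies within 1 SD of their mean, so those values stayed by construction. The number of domains depends on the limit: 468 at 8 kb (8000 bp), 110 at 15 kb, and 182 and 167 when the rule was applied to the list of replicate 1 or replicate 2. The median coverage of 95.4% was 96.5% with the 15 kb limit, 92.2% with set regions within 500 bp merged, 88.1% with the upper 50% of replicate regions by score and 96.5% with replicate regions within 500 bp merged. Leaving out a replicate gave 94.9 to 95.9%. The share held in 1 region, 51.8%, was 58.9% at 8 kb, 30.6% with set regions merged, 73.0% with the upper 50% and 74.7% with replicate regions merged, and 47.7 to 55.9% without a replicate. The common part of the gap sequence, 24.6%, was 19.5% at 15 kb, 32.4% with set regions merged and 49.3% with the upper 50%, where the larger part of each replicate's gap sequence (71.6% and 61.3%) was common to both. Keeping the upper 50% enlarges the gap sequence by construction, here to 1144 kb in replicate 1 and 1336 kb in replicate 2. The median distance to the nearest set region, 1179 bp, was 1997 bp after merging, which removes distances up to 500 bp by construction. The ratio of densities between chromosome 4 and the large arms ran from 3.53 to 4.86, and was 4.15 and 4.55 in the replicate lists. The share with another domain within 100 kb, 58.4%, was 74.6% at 8 kb, 30.9% at 15 kb, 66.3% with set regions merged, 38.1% within 50 kb and 76.2% within 200 kb, and 40.7 to 43.1% in the replicate lists. The median score percentile, 70.6, was 73.0 at 15 kb and 65.1 with set regions merged. Merging replicate regions can only add covered sequence and lower the number of regions in a domain, and keeping the upper 50% can only remove covered sequence. The direction of those changes was thus set by construction. For changes without a cause by construction, the cause was not tested. No paired analysis was possible because no result comes from a test and the input libraries have no list of their own. Unknown read depth limits how gaps and weak ends can be read.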

Other observations

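The X chromosome, outside the autosomal rule, held 90 set regions of 10 kb or more, 4.01 per Mb and 7.04% of its set regions (95% exact interval 5.70 to 8.59). Their median width was 13255.5 bp and their median score 1.52, against 13466 bp and 1.44 for domains on the large autosomal arms. All 90 overlapped a region of both replicates. The median coverage was 93.8% in replicate 1 and 92.8% in replicate 2. Of the 90, 45 (50%) were held in 1 region in replicate 1 and 29 (32.2%) in replicate 2, against 55.9% and 47.7% of the autosomal domains. None of these differences was tested.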
